A study of Zea mays with 6 samples.

Results

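Heat shock protein genes in the developing maize leaf are described here for plants of the hda108 mutant and for wild type. The HDA108 protein is a histone deacetylase and takes acetyl groups off histones. The 6 genes were chosen by identifier from the 39604 listed: hsp101, hsp22, Hsp70, hsp3, the chloroplast gene hsp26 and an Hsp90 gene that RefSeq names hsp82. Together they cover the Hsp100, small, Hsp70 and Hsp90 chaperone classes, with hsp3 of no stated class. They were chosen with earlier results of this comparison known, so their values are given as a description and carry no test. RNA came from the wrapped 11th leaf of greenhouse plants at vegetative stage 8, from 3 libraries of hda108/hda108 mutant plants and 3 of wild-type plants. No treatment is recorded for either genotype, and the labels used here state neither the greenhouse temperature nor the hour of harvest. The labels also do not say which mutation or background the mutant carries, or whether a library holds 1 plant or several.

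Heat shock proteins are chaperones, which keep other proteins folded or return them to their fold. Small heat shock proteins hold unfolding proteins in a soluble state, Hsp70 refolds them, Hsp100 proteins pull clumped proteins apart together with Hsp70, and Hsp90 completes the folding of signalling proteins. In plants many of these genes are switched on by heat through heat shock factors, transcription factors that bind their promoters, while other members of the same families are expressed without stress.

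The deposited table holds 1 value per gene and genotype in FPKM, which relates fragments to the length of the transcript and to the size of the library. No value therefore has a replicate error, no difference a p-value, and the sequencing depth is unknown. Differences are log2(FPKM + 0.5) in hda108 minus the same in wild type, a scale that understates the difference of genes with low values. A gene was compared when it was above 0 in both genotypes with a mean of at least 1 FPKM, which held for 21057 genes. It was called when it differed at least 2-fold. HDA108 itself (GRMZM2G136067) was listed at 3.06 FPKM in hda108 and 10.9 FPKM in wild type, 28.1% of the wild-type level. Of the leaf photosynthesis markers, 9 of 10 identifiers were lower in hda108, while 59.7% of all compared genes were higher. The symbols PDK1 and Pep1 among these markers may stand for unrelated genes. The 10 identifiers summed to 1626 FPKM in hda108 and 2928 FPKM in wild type. Of the 4 meristem markers, none exceeded 0.0462 FPKM in either genotype and knox3 was listed at 0 in both. Anther markers were at or near 0, with the 3 summing to 0.0551 FPKM in hda108 and 0.0804 FPKM in wild type. The 5 endosperm markers, of which FL2 and o2 were listed at 0 in both genotypes, summed to 8.59 FPKM in hda108 and 6.32 FPKM in wild type. Of the pair of root markers, rtcs1 was listed at 0 in both genotypes, and rth3 had 8.50 FPKM in hda108 and 4.31 FPKM in wild type. The part of these marker shifts in the results on chaperone genes was not tested.

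Of the 6 genes, 4 were higher in hda108 and 2 were barely expressed in either genotype. The 4 expressed genes, hsp101, hsp22, Hsp70 and hsp3, were each at least 1.5-fold higher. Among them hsp101 and hsp22 passed 2-fold. Across the whole table, 1.48% of compared genes reached 2-fold upward and 0.836% downward, and 5.32% reached 1.5-fold upward and 3.63% downward. Because the genes were chosen with this same comparison known, nothing is read from their count against these shares.

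**Figure D1:**
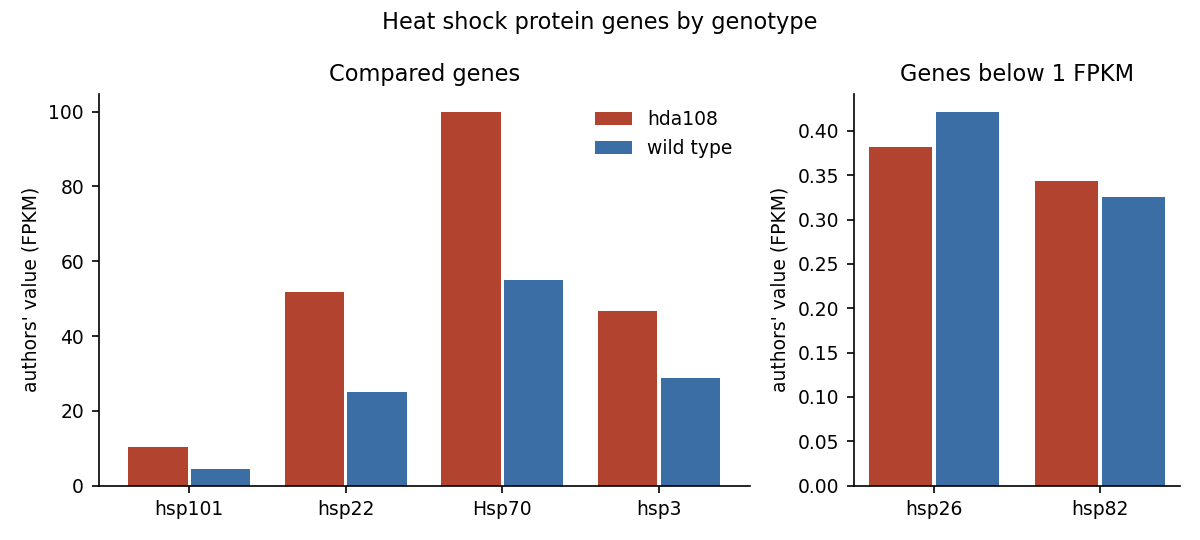
Authors' FPKM value of each of the 6 heat shock protein genes in hda108 (red) and wild type (blue), with no error bars because the table holds 1 value per genotype. The 4 compared genes are all higher in hda108, while hsp26 and hsp82, drawn on their own axis, stay below 1 FPKM in both genotypes.

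The Hsp100 gene hsp101 (GRMZM2G360681, chromosome 6, 160816569 to 160820239, B73 RefGen_v3) encodes the disaggregating chaperone that maize needs to tolerate heat. It had 10.4 FPKM in hda108 and 4.44 FPKM in wild type. The log2 difference was 1.15, the largest of the 6 genes, and the ratio without the added 0.5 was 2.35. Of all compared genes, 1.03% had a larger difference. Nothing is read from that rank, because hsp101 was chosen with this comparison known. The wild-type value lay near the middle of the genes above 0 in both genotypes, 49.7% of which were lower in wild type, while in hda108 69.6% of them were lower than hsp101. No other identifier found by a heat shock protein name carried an Hsp100 name.

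Among small heat shock protein genes, hsp22 (GRMZM2G007729, chromosome 4, 179852642 to 179853912) encodes the member that is imported into mitochondria. It had 51.9 FPKM in hda108 and 25.0 FPKM in wild type, a log2 difference of 1.04. This call sits at the threshold. After centring on the median of all genes it was 0.98, and with upper quartile scaling 0.99, both just short of 2-fold. The chloroplast gene hsp26 (GRMZM2G149647, chromosome 1, 33464177 to 33465385; RefSeq also lists the name hsp18 for it) was close to silent. It had 0.382 FPKM in hda108 and 0.421 FPKM in wild type. At these levels it was left out of the comparison, and a difference between the genotypes was not detectable.

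The other genes named as hsp18 had smaller or opposite differences. Because hsp22 was chosen with this comparison known, nothing is read from that contrast or from its share of the class. The gene hsp18c (GRMZM2G034157) had 10.04 FPKM in hda108 and 8.62 FPKM in wild type, a log2 difference of 0.21. The gene hsp18f (GRMZM2G083810) had 9.59 FPKM in hda108 and 12.3 FPKM in wild type, a log2 difference of -0.34, the lowest among compared heat shock protein genes. The last of them, hsp18a (GRMZM2G404249), had 0.00761 FPKM in hda108 and was listed at 0 in wild type. The 5 small heat shock identifiers with hsp22, hsp26 and these 3 summed to 71.9 FPKM in hda108 and 46.4 FPKM in wild type. The share of hsp22 and hsp26 in that sum was 72.7% in hda108 and 54.9% in wild type, almost all of it from hsp22. Without hsp22 and hsp26 these identifiers summed to 19.6 FPKM in hda108 and 20.9 FPKM in wild type.

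For hsp3 (GRMZM6G199466) the name table gives no chaperone class. It lies at 80 to 586 of unplaced scaffold 369, a span of 507 bp that begins close to the scaffold's end, so the gene model there may be incomplete. It had 46.6 FPKM in hda108 and 28.8 FPKM in wild type. The log2 difference was 0.68, and 3.71% of compared genes had a larger one. As hsp3 was chosen with this comparison known, nothing is read from its rank either. In hda108 hsp22 stood above hsp3 at 1.11 times its level, whereas in wild type hsp22 stood below it at 0.869 times. This was the single change in the order of levels among the 6 genes, and with no replicate error these neighbours in the order cannot be told apart.

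The gene Hsp70 (GRMZM2G310431, chromosome 8, 168506538 to 168509902) was the most abundant of the 6 in both genotypes. It had 99.8 FPKM in hda108 and 54.9 FPKM in wild type. The log2 difference was 0.86, short of 2-fold, and the difference of 45.0 FPKM was the widest of the 6 in absolute terms. The other genes named for this class had a smaller or an opposite difference. Because the gene Hsp70 was chosen with this comparison known, nothing is read from that contrast or from its share of the class. The gene hsp70-4 (GRMZM2G340251), far more abundant, had 281 FPKM in hda108 and 306 FPKM in wild type, a log2 difference of -0.12. The gene hsp70-5 (GRMZM5G802801) had 6.77 FPKM in hda108 and 5.45 FPKM in wild type, a log2 difference of 0.29. RefSeq also lists the names hsp1 and hsp70 for it, and here the gene Hsp70 always means GRMZM2G310431. Together these 3 identifiers, found by name, summed to 388 FPKM in hda108 and 366 FPKM in wild type, a ratio of 1.06. Of this sum the share of the gene Hsp70 was 25.8% in hda108 and 15.0% in wild type. The sum was nearly the same in both genotypes, with a larger share from this gene in hda108. It leaves out bip1 and bip2, given below, and any gene of the class that the name patterns did not find.

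The Hsp90 gene hsp82 (GRMZM5G833699, chromosome 10, 93697765 to 93700740) was barely expressed. It had 0.344 FPKM in hda108 and 0.325 FPKM in wild type, below the limit for comparison. Among the 3 identifiers named for this class, nearly all of the summed level came from the others. The gene HSP90-2 (GRMZM2G012631) had 263 FPKM in hda108 and 236 FPKM in wild type, a log2 difference of 0.15. The gene HSP90-1 (GRMZM2G024668) had 36.6 FPKM in hda108 and 31.4 FPKM in wild type, a log2 difference of 0.22. Together these identifiers summed to 299.8 FPKM in hda108 and 268 FPKM in wild type, a ratio of 1.12. Of the sum, hsp82 supplied 0.115% in hda108 and 0.121% in wild type.

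**Figure D2:**
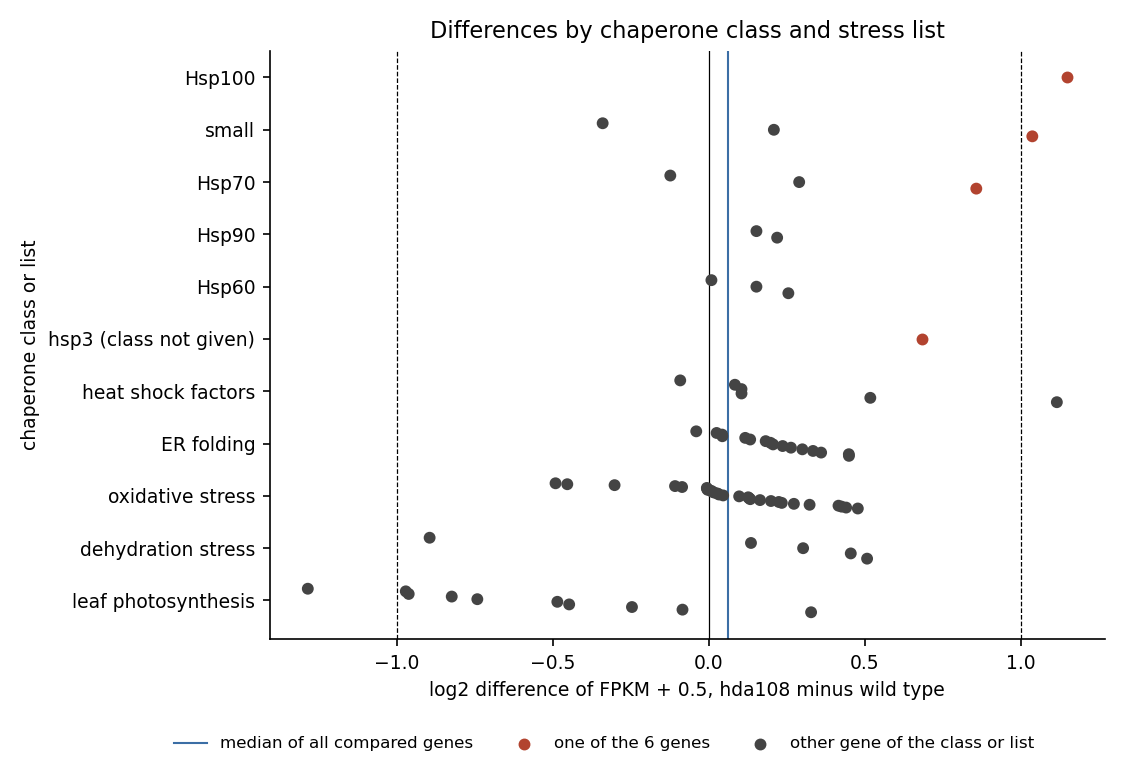
Difference on the log2 scale of FPKM + 0.5, in hda108 minus that in wild type, for each compared gene by chaperone class or list. Red points are those of the 6 genes that were compared, dark points other genes, the blue line the median of all compared genes and the dashed lines 2-fold. The red points lie between 0.68 and 1.15, to the right of every other chaperone gene shown by class. The 6 genes were chosen with this comparison known, so nothing is read from that gap. The leaf photosynthesis markers lie mostly to the left of 0.

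By chaperone class, levels were summed over the identifiers found by name, which need not be all genes of a class. The ratio of sums was 2.35 for Hsp100 (1 gene), 1.55 for small heat shock proteins, 1.12 for Hsp90, 1.10 for the Hsp60 chaperonins and 1.06 for Hsp70. The Hsp60 identifiers, which encode barrel-shaped folding chambers of organelles, had differences of 0.01 (GRMZM2G111477) and 0.15 (GRMZM2G458208), both for HSP60-1, and 0.25 for CPN60II (GRMZM2G416120). Over the 16 identifiers found by a heat shock protein name, which do not hold CPN60II, the sum was 887 FPKM in hda108 and 781 FPKM in wild type. The difference was 106 FPKM, of which the 6 genes made up 95.6 FPKM. They held 23.6% of the sum in hda108 and 14.6% in wild type. Because they were chosen with this comparison known, nothing is read from their part in the sum or in the difference. The other 10 identifiers summed to 677 FPKM in hda108 and 667 FPKM in wild type. One of these, hscf1, was listed at 0 in both genotypes, and the files give it no role.

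Of these 16 identifiers 12 were compared, of which 10 were higher and 2 lower, with a median log2 difference of 0.21. Without the chosen genes 8 remained, with 6 higher and 2 lower, a median of 0.15 and a range from -0.34 to 0.29. The median over all compared genes was 0.06, and 59.7% of them were above 0. Above that median lay 9 of the 12, and 5 of the 8 that were not chosen.

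The spread of differences varied with level. Among the 9195 genes with a mean between 5 and 20 FPKM, where hsp101 lies, the central 90% of differences ran from -0.43 to 0.51, and 1.03% were at least 2-fold higher. Among the 3821 genes between 20 and 100 FPKM, where hsp22, Hsp70 and hsp3 lie, it ran from -0.45 to 0.48, and 33 genes, hsp22 among them, were at least 2-fold higher. Nothing is read from the place of the chosen genes in these ranges. The spread across genes is not the spread between plants, which the table does not give.

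**Figure D3:**
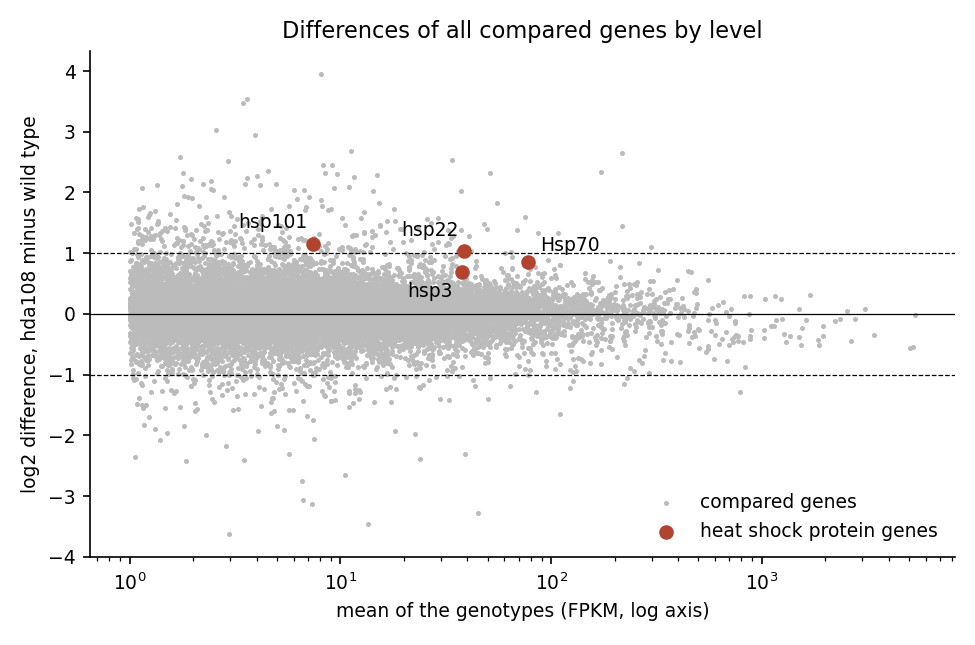
Mean of the genotypes in FPKM on a log axis against the log2 difference, hda108 minus wild type, for the 21057 compared genes (grey) with the 4 compared heat shock protein genes in red. Dashed lines mark 2-fold. The genes hsp101 and hsp22 lie above the upper dashed line, and Hsp70 and hsp3 lie between it and 0.

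Neighbouring genes were examined because hsp22 lies on the chromosome of the mutated gene, where a linked segment could carry differences of its own. On chromosome 4, HDA108 starts at 65983217 and hsp22 at 179852642, so the genes are far apart. Between 140 and 210 Mb of chromosome 4, the stretch that holds hsp22, 2.50% of 801 compared genes passed 2-fold upward and 5.99% in either direction. Outside chromosome 4 the shares were 1.38% and 2.04%. The rest of chromosome 4 was not counted on its own, so the shares do not set the stretch apart from it. The 3 nearest compared genes on either side of hsp22 had differences between -0.27 and 0.47, 3 higher and 3 lower, and none reached 2-fold. Among the 10 nearest on either side 9 were higher and 11 lower, and GRMZM2G075044 passed 2-fold with a difference of 1.24, larger than that of hsp22. A linked segment and the hda108 mutation itself cannot be told apart for hsp22 in this design. The genes hsp101, Hsp70, hsp26 and hsp82 lie on other chromosomes. The scaffold of hsp3 is not placed, but the neighbours given for it below lie on chromosome 7.

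None of the 6 nearest compared genes of hsp101 reached 2-fold (-0.13 to 0.39), and neither did those of Hsp70 (-0.35 to 0.62) or hsp26 (-0.30 to 0.50). Among the 10 nearest on either side, 2 passed 2-fold around hsp101 (the larger at 1.42, above hsp101 itself) and 1 around Hsp70 (1.10), all upward, and none around hsp26 or hsp3. For hsp3, whose scaffold is not placed in the build of the files, the order of genes was taken from the RefSeq assembly Zm-B73-REFERENCE-NAM-5.0, and its 6 neighbours ranged from -0.44 to 0.22. Beside hsp82 the next pair of compared genes on one side both passed 2-fold. GRMZM2G061879 had 54.2 FPKM in hda108 and 20.4 FPKM in wild type, and GRMZM2G450512 had 405 FPKM in hda108 and 187 FPKM in wild type. The name table gives neither a name, and hsp82 itself had a log2 difference of 0.03.

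**Figure D4:**
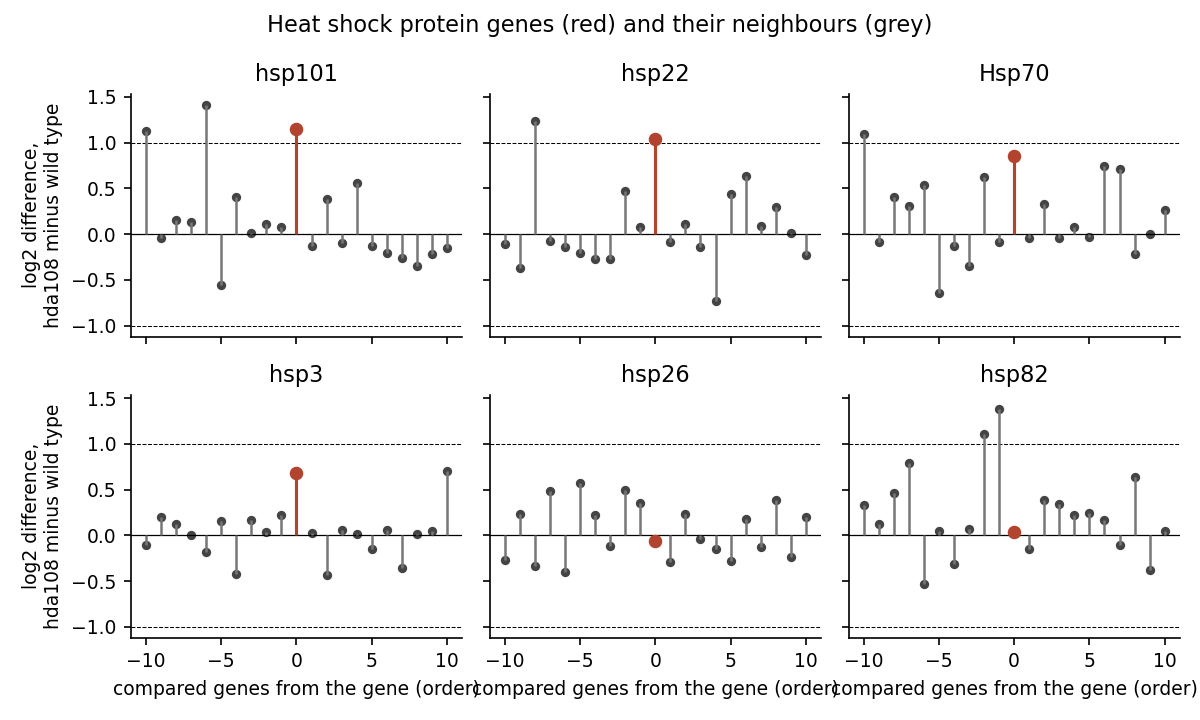
Log2 difference, hda108 minus wild type, of each of the 6 heat shock protein genes (red, position 0) and of the 10 nearest compared genes on either side (grey), by order along the chromosome. Dashed lines mark 2-fold. The red points of hsp101, hsp22, Hsp70 and hsp3 stand above their nearest 3 neighbours on either side. Among the 10 on either side, each of them has a neighbour with a larger difference (1.42, 1.24, 1.10 and 0.71 in that order). The genes were chosen with this comparison known, so nothing is read from their height beside the neighbours. The red points of hsp26 and hsp82 lie near 0.

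Heat shock factor genes encode the transcription factors that bind promoters of heat shock protein genes. Of 10 identifiers 6 were compared, of which 5 were higher and 1 lower, with a median of 0.10. Over all compared genes 59.7% were higher, and the median was 0.06. The gene Hsf03 (GRMZM2G164909) had 2.17 FPKM in hda108 and 0.731 FPKM in wild type, a log2 difference of 1.12, and was the 1 member past 2-fold. The gene Hsf17 (GRMZM2G125969) had 3.27 FPKM in hda108 and 2.14 FPKM in wild type, a log2 difference of 0.52. The most abundant of the 6 was an identifier for Hsf05 (GRMZM2G132971), with 15.6 FPKM in hda108 and 14.7 FPKM in wild type, a log2 difference of 0.08. With it, the remaining 4 lay between -0.09, for Hsf12, which shares its locus entry with another gene, and 0.10. Of the genes with a mean between 1 and 5 FPKM, where Hsf03 and Hsf17 lie, 2.41% were at least 2-fold higher.

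Genes for folding in the endoplasmic reticulum, a separate chaperone system, were mostly higher in hda108 by small amounts. This list holds the protein disulfide isomerases, the luminal Hsp70 genes bip1 and bip2, and crt2, a calreticulin gene. All 16 identifiers were compared, 15 were higher and 1 lower, and none reached 1.5-fold. Their median was 0.20, and 12 lay above the median of all genes. Of all compared genes, 59.7% were higher, and 5.32% reached 1.5-fold upward and 3.63% downward. The median of the heat shock protein list was 0.21, and 0.15 without the chosen genes. The highest were pdi7 (GRMZM2G159369), with 96.6 FPKM in hda108 and 70.6 FPKM in wild type, pdi8 (GRMZM2G389173; log2 difference 0.45) and pdi10 (GRMZM2G113629; 0.36). The lowest was pdi12 (GRMZM2G067063; -0.04). The luminal Hsp70 genes bip1 (0.04) and bip2 (0.24) differed less than the gene Hsp70. Nothing is read from this, since the gene Hsp70 was chosen with this comparison known.

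Several limits bear on these values. Genes of the Hsp70, Hsp90 and small heat shock families resemble each other in sequence, and how the authors treated reads that match several of them is not given in the sources used here, so the split of reads within a class is uncertain. In whole leaves, a different makeup of cells and a different level per cell cannot be told apart.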

How the data were processed

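RNA was sequenced from 6 strand-specific libraries depleted of ribosomal RNA, 3 of hda108 and 3 of wild type. The authors deposited 1 FPKM value per gene and genotype. Per the submitters' processing notes the build was B73 RefGen_v3 and the tools were Cuffdiff 2.2.1 with Cufflinks, TopHat2 2.0.13, SAMtools, Trimmomatic 0.33 and CASAVA 1.8; their roles, settings and the scaling between libraries are not given in the sources used here. The column named as homozygous was read as hda108. Of 200 genes with a mean below 0.02 FPKM, at most 3 shared a ratio of the genotypes. Each value summarises 3 libraries, so this cannot show whether low values move in whole-read steps.

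Differences used a pseudocount of 0.5, a mean of at least 1 FPKM and a limit of 2-fold; the planned limma fit needs a value per library and was not possible. The 6 genes and all lists were chosen with earlier results of these data known. Lists were filled by symbol patterns from RefSeq (Zm-B73-REFERENCE-NAM-5.0, for names and gene order only). Of the identifiers 18539 matched 1 entry, and 521 that matched several were left out. Symbols can be shared by unrelated genes. Lists for J-domain co-chaperones and peptidyl-prolyl isomerases found no identifier. Named genes are the 6, up to 3 per list with the largest difference in each direction, HDA108 and neighbours past 2-fold. The chaperone classes and their other genes, the marker genes named by level, the stress genes named below the filter and neighbours beyond the nearest 3 were picked after values were seen. With 1 value per genotype, no gene could be ranked by likeness of pattern. Alternatives covered pseudocount, filter, scaling, shared loci, chromosome 4 and the fold limit. The work was done in Python 3.11.15 with pandas 2.3.3, numpy 2.4.6 and matplotlib 3.10.9.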

Additional observations from a re-analysis of the deposited data

How the results depend on the processing

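The differences of hsp101, Hsp70 and hsp3 kept their direction and their side of 2-fold under every pseudocount and scaling run. They ranged from 1.07 to 1.23 for hsp101, 0.80 to 0.86 for Hsp70 and 0.62 to 0.69 for hsp3. Runs that only changed which genes were compared (filter, shared loci, chromosome 4) cannot move the value of a gene that stays in. That of hsp22 was 0.98 with the median difference set to 0 and 0.99 with upper quartile scaling, and otherwise stayed past 2-fold. The number of the 6 genes at least 2-fold higher was 2. It was 1 under each of those scalings and without chromosome 4, which holds hsp22, and 4 at a limit of 1.5-fold. The differences of hsp26 and hsp82 moved by less than 0.1, but that of hsp82 changed sign to -0.02 with the median set to 0 and to -0.04 with quantile normalization, so no direction is given for it. The share of compared genes past the limit was 5.32% higher and 3.63% lower at 1.5-fold, and 0.972% higher where the mean had to reach 5 FPKM. List medians moved by at most 0.1, other than that of the leaf photosynthesis markers without chromosome 4 (-0.47, against -0.61 with it). No paired analysis was possible because the table holds 1 value per genotype, which also prevented leaving out replicates. Families by protein identity were not run, since no protein sequences were used here. The ratio with no pseudocount was added after seeing the data. Depth is unknown, so no counting error can be given.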

Other observations

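Of 41 identifiers in the oxidative stress list (ascorbate peroxidase, superoxide dismutase, glutathione transferase and GR genes, by name) 28 were compared, with 20 higher, 8 lower and a median log2 difference of 0.07, against 0.06 over all compared genes. Of all compared genes, 59.7% were higher, and 5.32% reached 1.5-fold upward and 3.63% downward. None of those in the oxidative stress list reached 1.5-fold. Among those below the filter, gst18 (GRMZM2G019090) had 1.57 FPKM in hda108 and 0.213 FPKM in wild type, and GST25 (GRMZM2G161905) 1.35 FPKM in hda108 and 0.279 FPKM in wild type. The highest were GR2c (GRMZM2G061695; 0.48), gst37 (GRMZM2G178079; 0.44) and gst28 (GRMZM2G146475; 0.43), and the lowest GST38 (GRMZM2G066369; -0.49), GST3 (GRMZM2G146246; -0.45) and GR1a (GRMZM2G429000; -0.30). Of the 6 identifiers in the dehydration list 5 were compared, with 4 higher, 1 lower and a median of 0.30, above the 0.21 of the heat shock protein list. The dehydrin genes dhn2 (GRMZM2G373522; 0.46) and dehydrin7 (GRMZM2G002786; 0.30) were higher, as was RAB2A (GRMZM2G330430; 0.51), a name also used for a transport GTPase. RAB15 (GRMZM2G165901) had 165 FPKM in hda108 and 307 FPKM in wild type. The difference between these lists and the heat shock protein genes was not tested.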
